A study of Rattus norvegicus with 43 samples.

Results

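The genes described here charge transfer RNAs with amino acids, make serine and mitochondrial folate cofactors, carry amino acids into the cell, or belong to the response driven by the transcription factor ATF4. They are 41 of the 14217 genes that the array annotation names singly. They were chosen by name in 5 roles: 19 cytosolic aminoacyl-tRNA synthetases or their subunits, 7 serine and folate enzymes, 4 transcription factors, 5 amino acid transporters and 6 other genes known as ATF4 targets. It was already known when they were chosen that Gars1 and Aldh1l2 rose with mitotic genes on these arrays. The relation of the members to the mitotic genes Mki67 and Top2a is therefore given as a description, with no test.

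Gene expression was measured on 43 arrays, each with RNA from the anterior pituitary of a different male rat. The animals were the F2 offspring of a cross of Copenhagen (COP) females with ACI males. From 9 weeks of age all of them carried under the skin a silastic implant with 5 mg of the synthetic estrogen diethylstilbestrol (DES), and they were killed 12 weeks later at 21 weeks of age. All had also received bromodeoxyuridine (BrdU, 50 mg/kg), a label of DNA synthesis, 4 hours before death. The study took the animals with the 22 highest and 21 lowest pituitary weights, but the labels do not say to which of these classes an animal belonged, and the arrays are treated as 1 group. No array of an untreated rat was analysed here, and nothing below describes an effect of DES. In whole glands, fewer cells of a type and less RNA per cell cannot be told apart.

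Aminoacyl-tRNA synthetases join each amino acid to its transfer RNA before translation. When a cell lacks amino acids or has unfolded protein in the endoplasmic reticulum, kinases phosphorylate the initiation factor eIF2, general translation slows, and translation of the Atf4 messenger RNA increases. ATF4 then induces synthetases, serine and asparagine synthesis, mitochondrial folate enzymes and amino acid transporters. The amount of ATF4 protein is thus set largely by translation, and arrays measure only the messenger RNA. The anterior pituitary is a secretory gland whose lactotrophs multiply under estrogen and produce large amounts of prolactin.

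ATF4 binds as a heterodimer with C/EBP proteins to a composite DNA element, and the core TGATGNAA (TTNCATCA on the other strand) was searched on both strands of promoter windows from RefSeq, assembly GRCr8, each holding 250 bases before and 50 bases after the annotated start. Of the 41 members, 36 had a window, and 11 of these held the core (30.6%), against 1141 of the 27457 genes with a window (4.16%). The 11 were 7 synthetase genes (Aars1, Cars1, Iars1, Mars1, Nars1, Tars1 and Yars1), the transporter Slc7a1, and Trib3, Chac1 and Pck2. A match describes letters in the window and is no binding site measured here. A window without the core says nothing about sequence outside it or at other starts of the gene. Gars1, Aldh1l2, Eif4ebp1, Rars1 and Slc7a3 had no window in the table.

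A match from each of these genes is given here with up to 12 bases on either side, to let the shared core be read in its different surroundings. The capitals mark the core.
Iars1, chr17:15193657-15193688, minus strand: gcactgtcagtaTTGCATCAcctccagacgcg
Tars1, chr2:62114810-62114841, minus strand: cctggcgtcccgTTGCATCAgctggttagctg
Mars1, chr7:65023751-65023782, minus strand: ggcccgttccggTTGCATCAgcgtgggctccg
Cars1, chr1:208225333-208225364, minus strand: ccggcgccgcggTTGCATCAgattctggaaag
Aars1, chr19:55908479-55908510, plus strand: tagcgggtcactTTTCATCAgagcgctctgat
Nars1, chr18:60275777-60275808, minus strand: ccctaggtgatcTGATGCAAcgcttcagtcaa
Yars1, chr5:146820189-146820212, plus strand: tacgagctcagcTGATGCAAcctg
Chac1, chr3:126795952-126795983, plus strand: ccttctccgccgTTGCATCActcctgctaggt
Trib3, chr3:161275535-161275566, minus strand: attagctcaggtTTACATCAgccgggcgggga
Slc7a1, chr12:11664446-11664477, plus strand: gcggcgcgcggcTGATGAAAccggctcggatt
Pck2, chr15:32997603-32997633, plus strand: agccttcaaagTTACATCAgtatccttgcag
In Iars1, Tars1, Mars1, Nars1, Trib3 and Slc7a1 the core shown lay between 14 and 30 bases before the start. In Cars1, Yars1 and Aars1 the core shown lay 17, 38 and 9 bases after the start. In Chac1 and Pck2 it lay farther before the start, at 167 and 239 bases. Asns itself held no core in its window. In the regression on Asns given further on, Mthfd2 (t = 7.53) and Atf5 (t = 5.50) followed it most closely among members with a window. Neither held the core in its window. Among genes with the core, t ran from 0.65 in Tars1 and 2.05 in Chac1 to 4.97 in Iars1. The whole windows of Iars1, Pck2 and Nars1, 3 of the 4 genes with the core whose levels followed Asns most closely, read as follows.
Iars1, chr17:15193603-15193902, minus strand: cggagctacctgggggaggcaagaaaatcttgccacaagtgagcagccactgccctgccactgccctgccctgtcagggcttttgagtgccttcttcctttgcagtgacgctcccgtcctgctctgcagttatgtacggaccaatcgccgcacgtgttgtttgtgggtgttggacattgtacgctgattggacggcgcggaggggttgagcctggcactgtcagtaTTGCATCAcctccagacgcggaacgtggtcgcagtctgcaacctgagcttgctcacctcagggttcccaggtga
Pck2, chr15:32997603-32997902, plus strand: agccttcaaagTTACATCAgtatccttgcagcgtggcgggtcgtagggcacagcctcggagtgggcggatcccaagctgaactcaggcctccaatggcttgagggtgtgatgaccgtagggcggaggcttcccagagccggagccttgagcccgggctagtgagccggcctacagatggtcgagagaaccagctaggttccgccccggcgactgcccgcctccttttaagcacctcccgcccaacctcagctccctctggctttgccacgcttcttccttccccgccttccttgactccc
Nars1, chr18:60275733-60276032, minus strand: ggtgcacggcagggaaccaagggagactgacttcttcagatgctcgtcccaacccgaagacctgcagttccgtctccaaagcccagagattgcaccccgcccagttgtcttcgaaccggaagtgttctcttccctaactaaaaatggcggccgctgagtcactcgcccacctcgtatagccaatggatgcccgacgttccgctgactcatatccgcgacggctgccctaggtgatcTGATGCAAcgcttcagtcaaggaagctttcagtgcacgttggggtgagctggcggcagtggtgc

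Each level below is log2(intensity + 16) of the gene's probe set with the highest mean, and the brightness of different probe sets cannot be compared. Of the 41 members, 39 passed the filter on dim probe sets, a mean above 7.16, and the transporters Slc7a11 (mean 6.06) and Slc7a3 (mean 5.86) did not. The 3 lactotroph markers Prl, Drd2 and Pou1f1 passed this filter, with a summed intensity between 54660 and 87160 over the animals. Of Avp, Oxt and Gfap, which mark the posterior lobe, 0 of 3 passed, and their summed intensity lay between 45 and 233.4. Animal 43 had an array unlike the rest: its mean correlation with them was 0.927, against values of 0.967 to 0.976 for every other array. Its difference between the 3' and 5' probe sets of actin was 1.97 and that of GAPDH 0.45, against at most 1.67 and 0.29 on the others. Animal 38 had the lowest levels of Mki67 and Top2a. Results are therefore given with and without these animals.

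The array of animal 43 was the lowest of all in 20 of the 39 members that passed, and the highest in 2. Over all probe sets that passed, it was the lowest in 25.4% and the highest in 16.4%. Animal 38 was the lowest in 3 members, Gars1, Aldh1l2 and Psat1, and in 3.25% of all probe sets. The median of the members' levels, each centred on its median over arrays, was -0.50 in animal 43 and -0.25 in animal 38, while the next lowest was -0.12 in animal 28 and the highest 0.18 in animal 13. The part of RNA quality in these values was not tested.

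**Figure D1:**
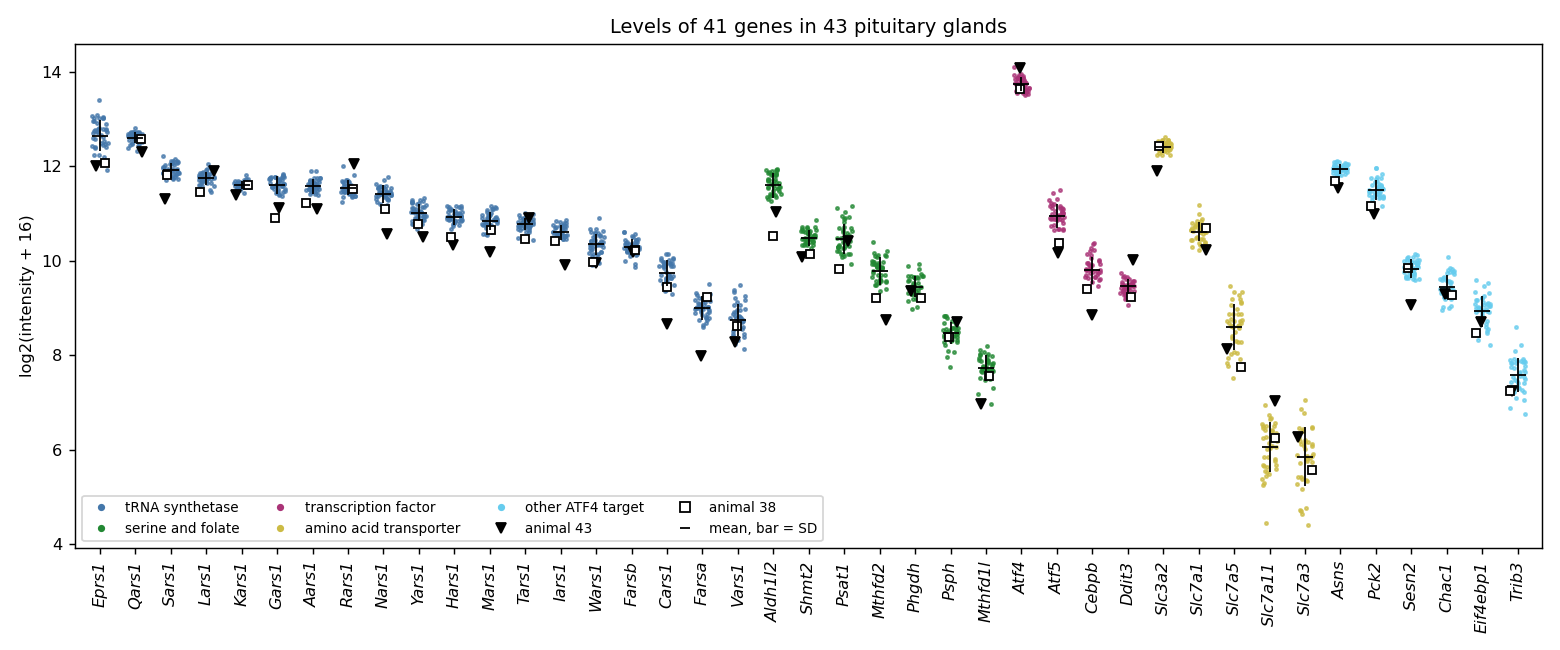
Log2(intensity + 16) of each of the 41 genes (horizontal axis, by role) in the 43 glands; each point is an animal, the horizontal dash is the mean and the vertical bar the SD. Animal 43 (filled triangle) is the lowest point in 20 of the 39 genes that passed the filter, and animal 38 (open square) in Gars1, Aldh1l2 and Psat1; heights of different genes are not comparable.

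Among the 19 synthetase genes the SD between animals ran from 0.077 in Kars1 to 0.34 in Vars1, with a median of 0.17. Kars1, the lysyl-tRNA synthetase, had levels between 11.39 and 11.81 with a median of 11.61. Its SD lay at the 0.5th percentile of the SDs of 200 probe sets of similar mean level. Eprs1, which joins glutamate and proline to their transfer RNAs, had levels between 11.92 in animal 33 and 13.40 in animal 11 with a median of 12.72. Its SD of 0.33 lay at the 97th percentile, so the spread of the synthetases between animals was far from uniform by these probe sets. Another bright probe set of Eprs1 (mean 12.14) hardly followed the one used, with an r of 0.076, while a dimmer one had an r of 0.831. Gars1, the glycyl-tRNA synthetase, had levels between 10.91 in animal 38 and 11.83 in animal 13 with a median of 11.63. Animal 43 was the next lowest at 11.12, and the SD of Gars1 was 0.18 over all animals and 0.13 without animals 38 and 43. Rars1, the arginyl-tRNA synthetase, went the other way: animal 43 was its highest, at 12.05, against a median of 11.53 and a lowest level of 11.25 in animal 13. Nars1, the asparaginyl-tRNA synthetase, had a lowest level of 10.56 in animal 43, a median of 11.43 and a highest of 11.76.

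The 7 serine and folate enzymes had SDs between 0.17 and 0.32. Psat1, the transaminase of serine synthesis, had levels between 9.82 in animal 38 and 11.17 in animal 4 with a median of 10.41. Animal 43 lay close to the median of Psat1, at 10.43. Phgdh, which begins serine synthesis, had levels between 8.99 and 9.93 with a median of 9.44, and Psph, which completes it, between 7.75 and 8.83 with a median of 8.49. In neither of these did animal 38 or 43 hold the lowest level. Aldh1l2, a mitochondrial enzyme that oxidises formyl-tetrahydrofolate, had levels between 10.52 in animal 38 and 11.95 in animal 2 with a median of 11.62, a 2.70-fold range. Animals 38 and 43 were both below all others in Aldh1l2. Mthfd2, a dehydrogenase and cyclohydrolase of the mitochondrial folate pathway, had levels between 8.74 in animal 43 and 10.39 in animal 7 with a median of 9.85, a 3.15-fold range. Shmt2, which splits serine for that pathway, had levels between 10.07 and 10.87 with a median of 10.49. Mthfd1l, which releases formate, had levels between 6.97 and 8.19 with a median of 7.75.

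Of the transcription factors, Atf4 had levels between 13.51 in animal 42 and 14.10 in animal 4 with a median of 13.74. Animal 43 was the second highest in Atf4, at 14.09, although it was the lowest in 20 members. Atf5, a factor related to ATF4, had levels between 10.17 in animal 43 and 11.51 in animal 7 with a median of 10.97. Cebpb, a C/EBP factor, had levels between 8.85 in animal 43 and 10.37 in animal 34 with a median of 9.79. Ddit3, which encodes the stress factor CHOP, had levels between 9.06 and 10.01 with a median of 9.47, and animal 43 was the highest. The 4 factors thus differed in where animal 43 lay.

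Among the transporters, Slc7a5, the light chain of the leucine transporter LAT1, had levels between 7.51 in animal 28 and 9.46 in animal 7 with a median of 8.64. Its SD of 0.49 lay at the 98th percentile of probe sets near it in level. Slc3a2, the heavy chain that pairs with Slc7a5, varied less, between 11.89 in animal 43 and 12.63 in animal 13 with a median of 12.44, at the 26th percentile. Slc7a1, a carrier of cationic amino acids, had levels between 10.23 and 11.17 with a median of 10.65. The intensity of Slc7a11, which imports cystine, lay between 5.8 and 115.7, and that of Slc7a3, a further carrier of cationic amino acids, between 5.2 and 117.6. These 2 were dim on every array and were not tested.

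Asns, which makes asparagine, varied little, with levels between 11.54 in animal 43 and 12.11 in animal 4 and a median of 11.95. Its SD of 0.11 lay at the 11.5th percentile, and animal 38 was the next lowest at 11.69. Chac1, which breaks down glutathione, had levels between 8.97 in animal 37 and 10.08 in animal 7 with a median of 9.39. Eif4ebp1, an inhibitor of cap-dependent translation, had levels between 8.23 in animal 27 and 9.59 in animal 4 with a median of 8.97. The extremes of these 2 genes fell on other animals than 38 and 43. Trib3, a pseudokinase, had levels between 6.76 and 8.60 with a median of 7.57. Pck2, the mitochondrial phosphoenolpyruvate carboxykinase, had levels between 10.98 and 11.97 with a median of 11.49. Sesn2, a leucine sensor that restrains mTORC1, had levels between 9.07 and 10.14 with a median of 9.86. Animal 43 was the lowest in Asns, Pck2 and Sesn2. Over the 41 members, the SDs of 6 lay above the 90th percentile (Aldh1l2, Eprs1, Mthfd2, Psat1, Cebpb and Slc7a5) and those of 18 below the median of probe sets near them in level.

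The relation to the mitotic genes is described with a score, the mean of Mki67, the antigen of dividing cells, and Top2a, which untangles replicated DNA, each centred on the log2 scale. Mki67 had levels between 7.34 and 9.65 with a median of 8.98, and Top2a between 7.47 and 9.11 with a median of 8.32. The score ran from -1.27 in animal 38 to 0.62 in animal 22, and the second lowest animal was at -0.49. Animal 38 thus lay far below the rest on this axis. Slopes are given as log2 units of the gene per unit of the score, with their standard error.

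The slope on the mitotic score was above 0 in 38 of the 39 members that passed, and also with array medians subtracted, and in 37 after quantile normalization. The median slope was 0.205 over the members and 0.000231 over all probe sets. These values include Gars1 and Aldh1l2, whose rise was known when the members were chosen. They therefore carry no test and nothing is read from them. The slopes were 0.60 ± 0.08 for Aldh1l2, 0.48 ± 0.12 for Psat1, 0.40 ± 0.12 for Mthfd2, 0.39 ± 0.10 for Atf5 and 0.39 ± 0.06 for Gars1. They were 0.24 ± 0.07 for Iars1, 0.23 ± 0.05 for Tars1, 0.22 ± 0.06 for Lars1 and 0.22 ± 0.07 for Aars1, the isoleucyl-, threonyl-, leucyl- and alanyl-tRNA synthetases. Slc7a5 had a slope of 0.56 ± 0.20 and Chac1 of 0.30 ± 0.11. The slope of Atf4 itself was 0.06 ± 0.07, that of Asns 0.12 ± 0.05 and that of Rars1 -0.07 ± 0.07.

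Without animals 38 and 43 the median slope of the members was 0.156, against -0.000914 over all probe sets, and 36 of the 39 slopes were above 0. These values include Gars1 and Aldh1l2 and are again a description only. The slope was then 0.42 ± 0.09 for Aldh1l2 and 0.27 ± 0.06 for Gars1, both smaller than with all arrays. It was 0.48 ± 0.15 for Psat1 and 0.40 ± 0.13 for Chac1, 0.27 ± 0.13 for Mthfd2 and 0.29 ± 0.11 for Atf5. With a step between animals 22 and 23 in the model, the slope was 0.41 ± 0.07 for Aldh1l2, 0.34 ± 0.07 for Gars1 and 0.30 ± 0.12 for Psat1. The step falls after animal 22, and the study took 22 animals of high and 21 of low pituitary weight. No label says whether the numbers follow weight, so here and below the order of the animals, their weight class and their processing cannot be told apart.

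**Figure D2:**
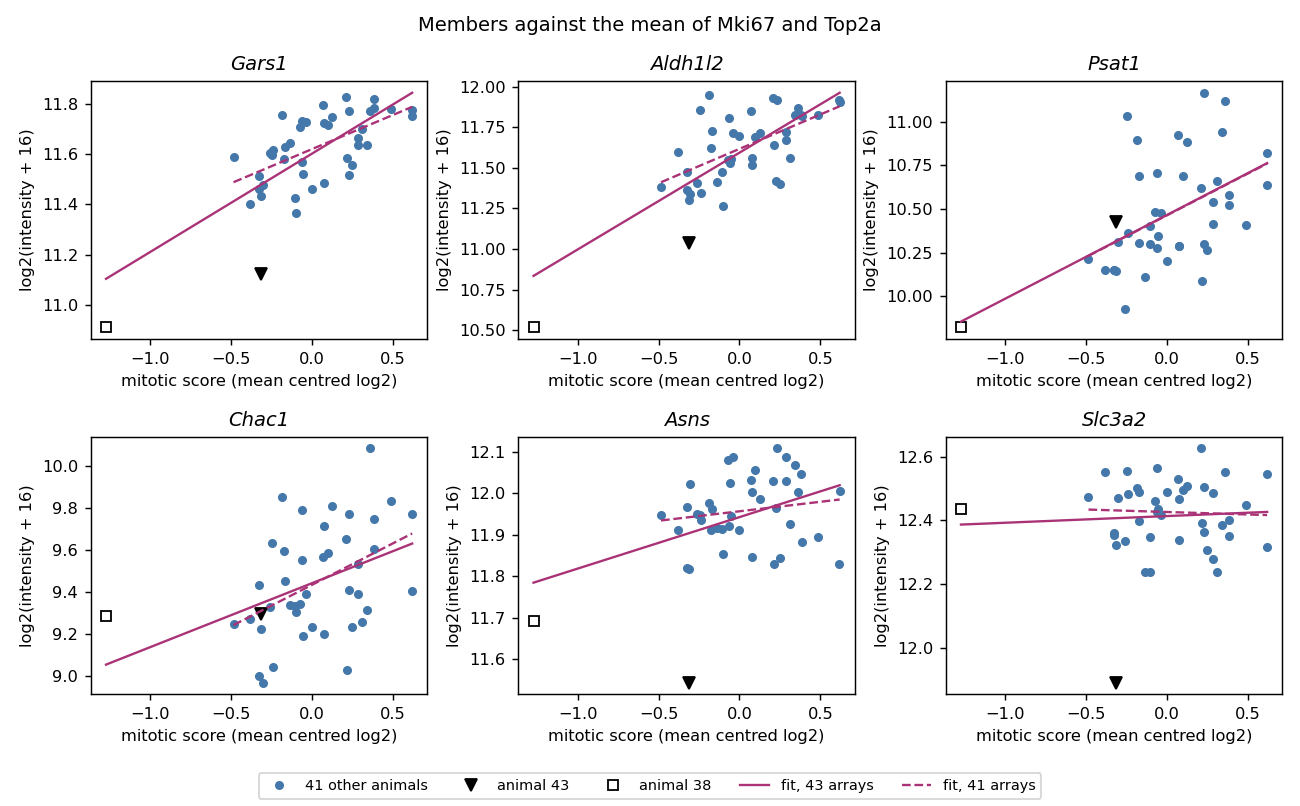
Levels of 6 members, log2(intensity + 16), against the mitotic score, the mean of centred Mki67 and Top2a; each point is an animal, the solid line the slope over 43 arrays and the dashed line that over the 41 arrays without animals 38 and 43. The slope of Gars1 is 0.39 with all arrays and 0.27 without the pair, that of Aldh1l2 0.60 and 0.42, while that of Slc3a2 is near 0 in both.

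Regression on Asns, itself a member and a well-known ATF4 target, asked which of the others varied with it. Both levels come from the same array, so that a property of an array is shared by them. Over 43 arrays, 21 of the 38 members tested rose with Asns and 0 fell (limma, Benjamini-Hochberg over 15520 probe sets, threshold 0.05). Over all probe sets 14.4% rose and 10.7% fell, and the share of calls that were rises was 57.3%, or 84.9% with array medians subtracted. With a stricter filter, which kept only probe sets above the 75th percentile of mean level, 22.4% rose and 17.3% fell. Slopes were above 0 in 34 of the 38 members, and their median was 0.811, against 0.0803 over all probe sets. By role, 8 of 19 synthetase genes rose, 5 of 7 serine and folate enzymes, 2 of 4 transcription factors, 3 of 3 transporters and 3 of 5 other ATF4 targets.

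The steepest of the enzymes was Mthfd2, which rose by 2.10 ± 0.28 log2 units per log2 unit of Asns (adjusted p = 5.6e-06). Gars1 rose by 1.20 ± 0.19 (adjusted p = 5.92e-05), and its second probe set, at 1.68 ± 0.41, was also called. Atf5 rose by 1.53 ± 0.28 (adjusted p = 0.000213), Aldh1l2 by 1.53 ± 0.31 (adjusted p = 0.000557) and Slc7a5 by 2.42 ± 0.56 (adjusted p = 0.00194). Psat1, of serine synthesis, rose by 1.34 ± 0.39 (adjusted p = 0.0113), while Phgdh had a slope of 0.40 ± 0.31 (adjusted p = 0.365) and Psph of -0.23 ± 0.33 (adjusted p = 0.64). The first and the last enzyme of serine synthesis thus did not pass the test. Atf4 itself had a slope of -0.21 ± 0.22 (adjusted p = 0.509), Ddit3 of -0.43 ± 0.23 (adjusted p = 0.17) and Rars1 of -0.40 ± 0.22 (adjusted p = 0.187). Mars1, the methionyl-tRNA synthetase, was not called by its brightest probe set (0.59 ± 0.26, adjusted p = 0.0842) but was by its second (1.77 ± 0.42, adjusted p = 0.00224). Probe sets of a gene also differed for Cars1, where 2 of 3 were called, and for Hars1 and Pck2, where the second was not.

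This relation rested largely on animals 43 and 38, the lowest in Asns. Without animal 43, 4 of the 38 members rose with Asns and 0 fell, against 0.174% and 0.0838% of all probe sets. The 4 were Gars1 (1.20 ± 0.24, adjusted p = 0.0168), Mthfd2 (1.85 ± 0.34, adjusted p = 0.0168), Slc7a5 (3.04 ± 0.68, adjusted p = 0.0352) and Psat1 (1.94 ± 0.46, adjusted p = 0.0459). Aldh1l2 had nearly the same slope without animal 43, 1.59 ± 0.38 (adjusted p = 0.051), whereas Nars1 had 0.26 ± 0.24 (adjusted p = 0.654), against 0.88 ± 0.24 with all arrays (adjusted p = 0.00672). Without both animals, limma called 0 of the 38 members and 0 of 15520 probe sets, and an unadjusted p under 0.05 was found for 12 members (31.6%) and 1808 probe sets (11.6%). The slopes were then 1.73 ± 0.38 for Mthfd2 (adjusted p = 0.0906), 2.97 ± 0.77 for Slc7a5 (adjusted p = 0.153), 1.80 ± 0.52 for Psat1 (adjusted p = 0.212) and 0.81 ± 0.24 for Gars1 (adjusted p = 0.212). The median slope of the members was 0.384 without both animals, and that of all probe sets -0.0148. By role the median was 0.695 for the serine and folate enzymes and 0.137 for the synthetases. Without animal 38 alone, 20 members rose and 1 fell (Ddit3, -0.62 ± 0.24, adjusted p = 0.0485), against 15.4% and 10.9% of all probe sets. With the step between animals 22 and 23 in the model, 17 rose, against 10.4% of all probe sets, and 0 fell, against 7.6%. With the smooth trend over animal numbers, 10 rose, against 3.9%, and 0 fell, against 2.71%. With the 3' minus 5' differences of actin and GAPDH in the model, 8 rose, against 2.64% of all probe sets, and 0 fell, against 2.09%. With ranks of Asns in place of its levels, 13 rose, against 4.18%, and 0 fell, against 3.62%.

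**Figure D3:**
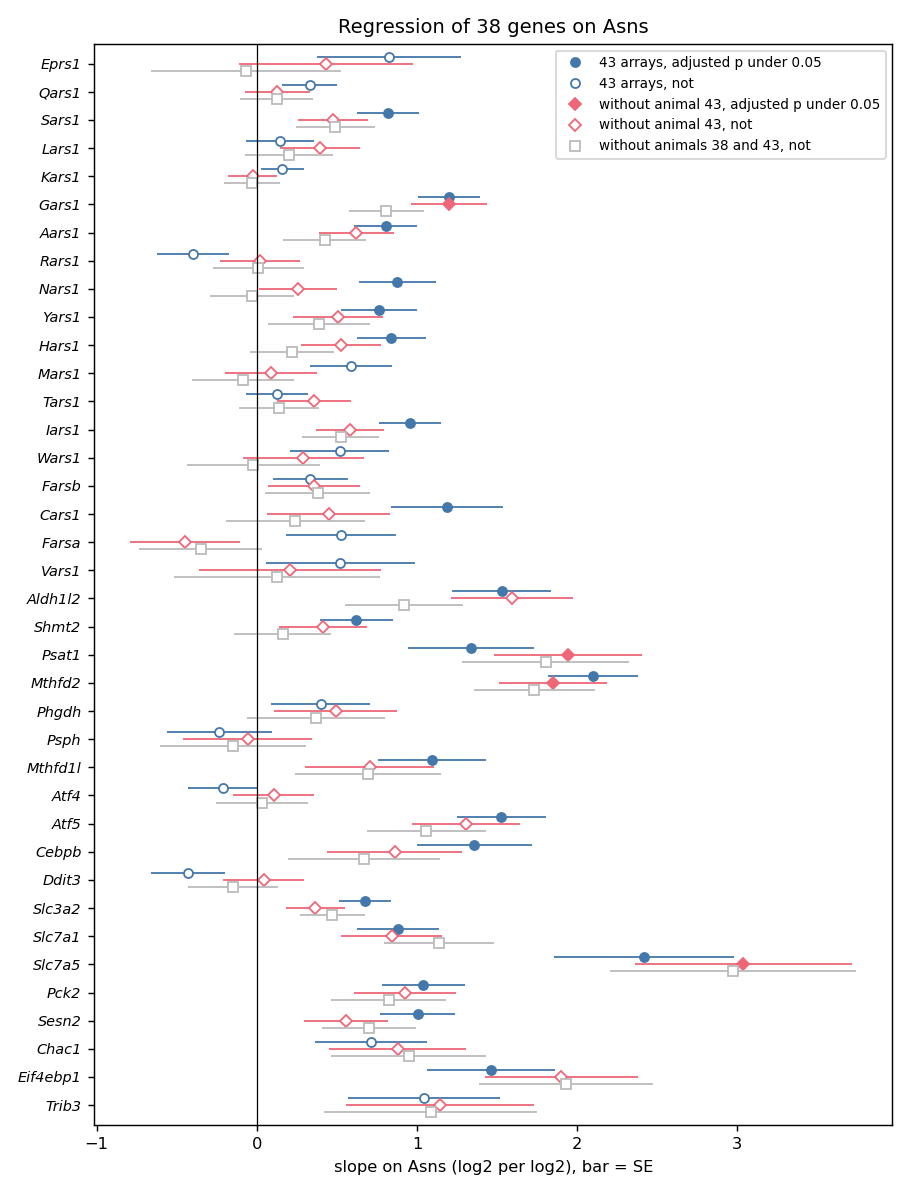
Slope of each of 38 members on Asns (log2 per log2, bar = SE) over 43 arrays (circles), without animal 43 (diamonds) and without animals 38 and 43 (squares); filled symbols have an adjusted p under 0.05. There are 21 filled circles, 4 filled diamonds (Gars1, Psat1, Mthfd2 and Slc7a5) and 0 filled squares.

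With the mitotic score in the model, 17 of the 38 members rose with Asns and 0 fell, against 11.6% and 8.61% of all probe sets. The share of rises among all calls was 57.4%, or 90.7% with array medians subtracted. With the stricter filter 20.4% of the probe sets kept rose and 14.9% fell. Mthfd2 kept a slope of 1.90 ± 0.30 (adjusted p = 0.000126), Gars1 of 0.85 ± 0.16 (adjusted p = 0.000808) and Atf5 of 1.23 ± 0.28 (adjusted p = 0.00275). Cars1, Yars1, Shmt2 and Psat1 were called on Asns alone but not here. Without animal 43, limma called 0 of the 38 members in this model and 1 of 15520 probe sets (0.00644%, with a slope below 0). An unadjusted p under 0.05 was found for 10 members and for 1640 of the 15520 probe sets. Without animals 38 and 43, limma again called 0 members and 0.00644% of all probe sets, and 11 members and 1664 probe sets had an unadjusted p under 0.05. With the smooth trend in the model, 4 members rose and 0 fell, against 1.43% and 1.2% of all probe sets. With the actin and GAPDH differences 4 members were called, against 0.883% of all probe sets above 0 and 1.06% below 0, and with ranks of Asns 2, against 0.863% and 1.03%.

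Regression on Atf4 asked whether members followed the messenger RNA of the factor they are grouped by. Of the 38 members tested, 5 rose with Atf4 and 0 fell, against 3.39% of all probe sets that rose and 6.49% that fell. Rises made up 34.3% of all calls, 77.9% with array medians subtracted and 46.1% after quantile normalization. With the stricter filter 6.25% of the probe sets kept rose and 8.18% fell. Chac1 rose by 0.96 ± 0.23 log2 units per log2 unit of Atf4 (adjusted p = 0.0055) and Psat1 by 1.10 ± 0.28 (adjusted p = 0.0102). Rars1 rose by 0.57 ± 0.15 (adjusted p = 0.0123), Ddit3 by 0.51 ± 0.16 (adjusted p = 0.0348) and Eif4ebp1 by 0.94 ± 0.30 (adjusted p = 0.0404). Asns had a slope of -0.11 ± 0.13 on Atf4 (adjusted p = 0.604), and Mthfd2, the closest follower of Asns, of 0.18 ± 0.31 (adjusted p = 0.755). The median slope over the 38 members was 0.0988, against -0.0881 over all probe sets.

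Here too animal 43 mattered, since it was second highest in Atf4 and low in most members. Without it, 8 of the 38 members rose with Atf4 and 0 fell, against 3.94% and 5.52% of all probe sets. Chac1 (1.17 ± 0.23, adjusted p = 0.00157), Psat1 (1.28 ± 0.29, adjusted p = 0.00547) and Eif4ebp1 (1.18 ± 0.31, adjusted p = 0.0144) were again called. The other 5 were the tyrosyl-tRNA synthetase Yars1 (0.67 ± 0.16, adjusted p = 0.00665), Eprs1 (1.21 ± 0.30, adjusted p = 0.00985), Aldh1l2 (0.83 ± 0.26, adjusted p = 0.0361), the cysteinyl-tRNA synthetase Cars1 (0.70 ± 0.23, adjusted p = 0.0441) and Pck2 (0.62 ± 0.20, adjusted p = 0.0467). The call of Eprs1 is that of its brightest probe set, which another bright probe set of the gene hardly followed (r = 0.076). Rars1 (0.43 ± 0.15, adjusted p = 0.055) was no longer called, and neither was Ddit3. Rars1 also rested on animal 4, the highest in Atf4, with a slope of 0.25 without animals 4 and 43 (adjusted p = 0.311), whereas Chac1, at 1.23, and Psat1 were still called. Without animals 38 and 43, 6 members rose: Chac1, Psat1, Yars1, Eprs1, Eif4ebp1 and Aldh1l2, against 3.56% of all probe sets that rose and 4.97% that fell. Asns had a slope of 0.04 ± 0.12 on Atf4 without animal 43 (adjusted p = 0.86).

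Terms for the order of the animals, which cannot be told apart from pituitary weight class, changed which members followed Atf4. With a step between animals 22 and 23 in the model, Rars1, Ddit3 and Chac1 rose with Atf4, while Iars1 (-0.63 ± 0.17, adjusted p = 0.00895), Sars1 (-0.48 ± 0.17, adjusted p = 0.0495) and Sesn2 (-0.60 ± 0.21, adjusted p = 0.0426) fell. The shares of all probe sets were then 6.35% rising and 10.5% falling. With a smooth trend over animal numbers Rars1 and Ddit3 rose and Iars1 fell, against 6.3% and 8.82% of all probe sets, and the median slope of the members was -0.20. Chac1 was called in 14 of 15 alternative analyses, with slopes between 0.62 and 1.23, and Psat1 in 13 of 15, with slopes between 0.45 and 1.28. Most of these alternatives changed only the offset, the scaling, the filter, the probe set or the animals. The calls lost were those with order terms: Psat1 had 0.66 ± 0.28 with the step (adjusted p = 0.0982) and 0.45 ± 0.32 with the trend (adjusted p = 0.37), and Chac1 0.62 ± 0.26 with the trend (adjusted p = 0.0952).

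**Figure D4:**
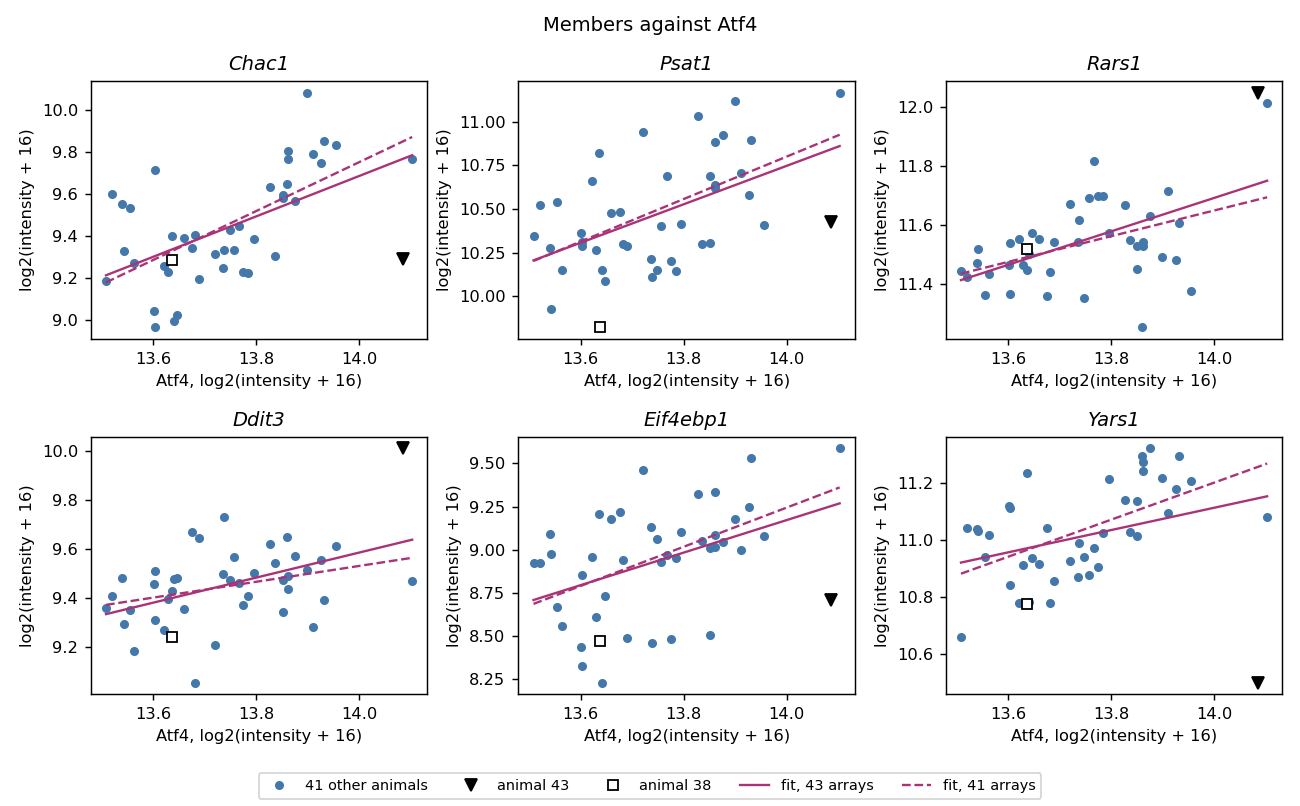
Levels of 6 members against Atf4, both as log2(intensity + 16); each point is an animal, the solid line the slope over 43 arrays and the dashed line that over the 41 arrays without animals 38 and 43. Chac1 and Psat1 rise with Atf4 in both lines, and animal 43 (filled triangle) is high in Atf4, the highest in Rars1 and Ddit3, and the lowest in Yars1.

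Over the 741 pairs of the 39 members that passed, the median Pearson r between animals was 0.27, against 0.00765 over all pairs of probe sets, and 18.5% of the pairs were above 0.5, against 2.22%. The points are arrays, and the genes of a pair share the array's RNA and scaling. Without animals 38 and 43 the median was 0.194, against 0.00195, and 8.5% of the member pairs were above 0.5, against 0.951%. The synthetases alone had a median of 0.296 with all arrays and 0.213 without the pair. Without animals 38 and 43, r was 0.764 for Aldh1l2 with Psat1, 0.71 for Aldh1l2 with Cars1, 0.708 for Mthfd2 with Slc3a2, 0.707 for Mars1 with Yars1 and 0.706 for Gars1 with Aldh1l2, the pair whose common relation to mitotic genes was known beforehand. Chac1 had r of 0.692 with Aldh1l2, 0.691 with Yars1 and 0.623 with Atf4. The lowest values over these arrays were -0.549 for Rars1 with Iars1 and -0.493 for Rars1 with Sesn2. Phgdh and Psat1, which act in turn on the same path, had an r of 0.317, and the paired chains Slc7a5 and Slc3a2 of 0.309.

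**Figure D5:**
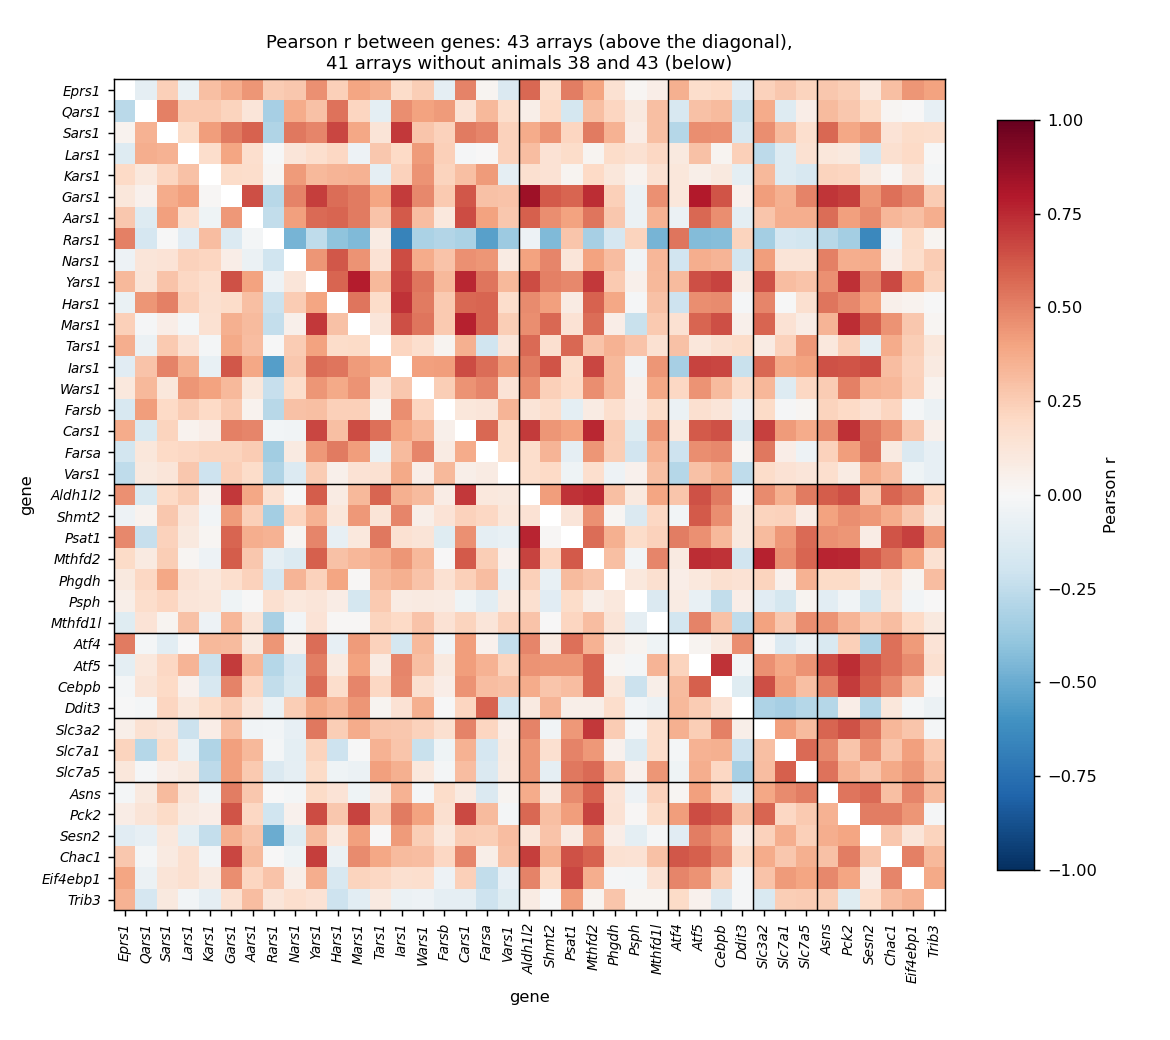
Pearson r between each pair of the 39 members that passed the filter, over 43 arrays above the diagonal and over 41 arrays, without animals 38 and 43, below it; lines separate the roles. Above the diagonal 18.5% of pairs exceed 0.5 and below it 8.5%, and Rars1 has a negative r (blue) with most members, -0.549 with Iars1 below the diagonal.

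Other genes of these pathways were read from further lists, beside which 14.4% of all probe sets rose with Asns over 43 arrays and 10.7% fell. With the stricter filter these shares were 22.4% and 17.3%. Of 13 other ATF4-induced genes tested, 7 rose with Asns over 43 arrays and 0 fell, among them the glutamine carrier Slc1a5 (1.76 ± 0.28, adjusted p = 4.85e-05), the alanine transaminase Gpt2 (1.24 ± 0.27, adjusted p = 0.000967) and the neutral amino acid carrier Slc1a4 (1.25 ± 0.29, adjusted p = 0.00202). Of 16 regulators of eIF2 and its response, 4 rose (Eif2b4, Gcn1, Nupr1 and Ppp1r15a) and 3 fell (Impact, Eif2s1 and the C/EBP factor Cebpg, at -0.86 ± 0.19, adjusted p = 0.00108). Of 8 mitochondrial synthetases, 1 rose (Tars2, 1.00 ± 0.25, adjusted p = 0.00334) and 0 fell. Of 12 endoplasmic reticulum stress genes 3 rose (Sdf2l1, Manf and Herpud1) and 0 fell. Of 7 MYC and growth genes 3 rose (Srm, Odc1 and Cad) and 1 fell (Nop56). Of 9 other folate and one-carbon enzymes 0 rose and 1 fell (Mat2a), and of 3 further synthetases and scaffold proteins of the synthetase complex 0 rose and 1 fell (Aimp1). Without animal 43, limma called 0 genes of these lists on Asns at the same threshold, which 0.174% of all probe sets passed above 0 and 0.0838% below it. The median slope of the other ATF4-induced genes was then 0.475. On Atf4, with which 3.39% of all probe sets rose and 6.49% fell over 43 arrays, 0 of the other ATF4-induced genes rose and 1 fell (Ddit4) with all arrays. Without animal 43, 2 of them rose (Stc2 and Gpt2) and 0 fell, against 3.94% and 5.52% of all probe sets. Genes of these lists beyond the 3 with the largest moderated t on Asns were named after their values were seen.

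Markers of the cell types of the gland were read in the same way. Of 27 markers tested, 1 rose with Asns over 43 arrays (the dopamine receptor Drd2 of lactotrophs), against 14.4% of all probe sets, and 9 fell, against 10.7%, from lactotrophs, somatotrophs, gonadotrophs, thyrotrophs, endothelium, fibroblasts and red cells. Without animal 43, 0 rose and 0 fell, against 0.174% and 0.0838% of all probe sets. On Atf4, 0 of the 27 rose and 6 fell, against 3.39% and 6.49% of all probe sets. Without animal 43, 0 rose and 7 fell, against 3.94% and 5.52%. Among these 7 were the somatotroph marker Dlk1 (-2.43 ± 0.65, adjusted p = 0.0144) and the stem cell marker Sox2 (-2.07 ± 0.38, adjusted p = 0.000874). Like the other markers they were named after their values were seen. They do not stand for their cell types, whose other markers are not described on Atf4. The summed intensity of the somatotroph markers lay between 17300 and 53740, that of the gonadotroph markers between 489.4 and 1613 and that of the folliculostellate and stem cell markers between 770.3 and 2261. On the mitotic score the median slope was -0.95 over the 2 thyrotroph markers and -0.92 over the 2 erythroid markers, the lowest of the marker lists. Both values are over all 43 arrays, among them animal 38, which lay far below the rest on this score. The part of the glands' cell makeup in the slopes of the members was not tested.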

How the data were processed

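For each of 43 biotin-labelled samples the authors deposited a linear intensity for every probe set; how the probes were summarised was not given in the sources used here. Scaling had already been done: the mean without the lowest and highest 2% lay between 499.28 and 500.0 on every array. This scaling was kept, 16 was added and log2 taken, which understates changes of dim probe sets. Precision is limited by the number of arrays. Of 31099 probe sets 57 were controls, 20832 had 1 gene symbol, and 15521 passed the filter (mean log2 above the median, 7.16). For 15 members with several probe sets the one with the highest mean was used.

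With limma 3.58.1 (R 4.3.3, lmFit and eBayes, 2-sided, Benjamini-Hochberg over all probe sets passing) each probe set was regressed on Asns, on Asns with the mitotic score, on Atf4 and, with no threshold applied, on the mitotic score. Members, lists and tests were chosen with earlier results of these data known. The genes planned for naming were the members, Mki67 and Top2a, and the 5 other genes of highest and 3 of lowest moderated t on Asns. The plan added up to 3 genes per list with the largest moderated t on Asns. Further genes of the lists and markers were named after their values were seen. Only the regression on Asns was tried on simulated data, with noise drawn independently for each probe set and array. Of 100 slopes set at 0.5 residual SD per SD of Asns 36% were recovered, and of 100 set at 1 residual SD 100%. The simulation held no outlying array like that of animal 43. Alternatives changed the offset, scaling, filter, probe set, animals, order terms, array quality terms and ranks. Promoter sequences are from RefSeq, assembly GRCr8, and some promoter sequence is not reported here. Genotypes were not used here.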

Additional observations from a re-analysis of the deposited data

How the results depend on the processing

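Counts of members past the threshold, in either direction, moved by over 1.5 times as follows, with the shares of all probe sets above and below 0 beside them. On Asns (21 of 38) they were 4 without animal 43 (0.174% and 0.0838%), 10 with a smooth trend over animal numbers (3.9% and 2.71%), 8 with array quality in the model (2.64% and 2.09%) and 13 with ranks of Asns (4.18% and 3.62%). They were 0 without animals 38 and 43, which are also the 2 animals farthest from the median of Asns. An unadjusted p under 0.05 (limma) was then found for 12 members, against 1808 of 15520 probe sets. With the mitotic score in the model (17 of 38) the counts were 10 with no filter (3.73% and 3.13%), 4 with the trend (1.43% and 1.2%), 4 with array quality (0.883% and 1.06%), 2 with ranks (0.863% and 1.03%), 0 without animal 43 and 0 without animals 38 and 43. In the last 2 settings an unadjusted p under 0.05 (limma) was found for 10 and 11 members, against 1640 and 1664 of 15520 probe sets. On Atf4 (5 of 38) the counts were 8 with array medians subtracted (7.96% and 2.26%), 9 after quantile normalization (5.34% and 6.25%), 3 with no filter (0.947% and 1.74%), 8 without animal 43 (3.94% and 5.52%), 3 with the trend (6.3% and 8.82%) and 3 with ranks (2.44% and 4.65%). The other 26 counts under alternatives stayed within 1.5 times, and the median slope of the members on the mitotic score, 0.205, lay between 0.152 (Top2a alone) and 0.228 (array medians subtracted). The analyses without both animals 38 and 43 were added after the data were seen. The slope of Nars1 on Asns reversed to -0.0291 without animals 38 and 43 (adjusted p = 0.979), and to -0.0929 with the mitotic score in the model (adjusted p = 0.933). Subtracting array medians moved the median slope of all probe sets on Asns to 0.208 and gave 25 rises among members (19.7% of all probe sets), and 20 with the mitotic score in the model (16.1%). The cause of these differences was not tested.

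No paired analysis was possible because the arrays form 1 group. Saturation was not assessed, probe sets of a gene could disagree, and with Asns varying by an SD of 0.11 its slopes lean on few animals.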

Other observations

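Outside the members, the 5 genes with the highest moderated t on Asns over 43 arrays were Yif1a, Dym, Slco3a1, Ccna2 and Ncstn, and the 3 with the lowest were Tceal1, Cetn2 and Zfand6. Without animal 43 all 8 were still called by limma with Benjamini-Hochberg adjustment, as were 0.174% of all probe sets above 0 and 0.0838% below. The 8 were picked on these same arrays, so these calls are no independent support. Yif1a, a protein of transport from the endoplasmic reticulum to the Golgi, had a slope of 0.96 ± 0.19 without animal 43 (adjusted p = 0.0168), against 1.47 ± 0.19 with all arrays (adjusted p = 5.6e-06). Ccna2, the cyclin of S phase and mitotic entry, had a slope of 2.50 ± 0.54 without animal 43 (adjusted p = 0.0265), against 4.23 ± 0.57 with all arrays (adjusted p = 5.6e-06). Cetn2, a centrosome protein, fell, with slopes of -1.11 ± 0.26 (adjusted p = 0.0457) and -1.78 ± 0.26 (adjusted p = 1.39e-05). Without animals 38 and 43 no probe set was called on Asns.

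In the list of eIF2 regulators, Nupr1, a transcription regulator of the stress response, rose with Atf4 by 1.46 ± 0.36 over 43 arrays (adjusted p = 0.00816) and by 1.96 ± 0.33 without animal 43 (adjusted p = 0.000432). In the list of endoplasmic reticulum stress genes, Dnajc3, an inhibitor of eIF2 kinases, rose with Atf4 by 0.97 ± 0.18 (adjusted p = 0.000581) and by 1.05 ± 0.19 without animal 43 (adjusted p = 0.000685). Both were chosen for naming after their values were seen, and the other genes of these lists are not described on Atf4. Over all probe sets, 3.39% rose with Atf4 and 6.49% fell over 43 arrays. Without animal 43 these shares were 3.94% and 5.52%.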
